A study of Mus musculus with 4 samples.

Results

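The nuclear-encoded subunits of the oxidative phosphorylation complexes were followed on 4 one-colour mouse arrays, 2 of spinal cord and 2 of duodenum. The members were chosen by gene symbol and not by a cut on any measured value, though earlier results of these data were known. They comprise the genes of the NADH dehydrogenase families Ndufa, Ndufb, Ndufc, Ndufs and Ndufv, succinate dehydrogenase Sdha to Sdhd, the Uqcr family with Cyc1, the Cox4i, Cox5, Cox6, Cox7 and Cox8 families, and the Atp5 family. Assembly factors and the muscle and fat isoforms Cox6a2, Cox7a1 and Cox8b were left out of the set. This gave 83 of the 32575 genes or identifiers on the array, 38 in complex I, 4 in complex II, 9 in complex III, 15 in complex IV and 17 in complex V. The 83 genes were covered by 112 probes, and each gene is represented by its brightest probe.

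The mice were males of 20 weeks, either IP6K2-KO, which carry a disrupted gene for inositol hexakisphosphate kinase 2, or their WT littermates. All of them had first eaten a normal diet, then a purified one (iVid-neo) during 1 week, and had been fasted for 48 h when tissue was taken. Each combination of genotype and tissue had 1 array, and the labels do not say whether its RNA came from 1 mouse or from a pool. With 1 array per group no difference has a replicate check, no test was made, and every value below describes these 4 arrays. The Ip6k2 probe, whose position relative to the disrupted part of the gene is not given in the files, did not separate the genotypes as labelled. In spinal cord it read 452 for WT and 1320.3 for the array labelled KO, and in duodenum 139 for WT and 572 for the array labelled KO. After scaling to the 75th percentile of each array, the difference was 1.45 on the log2 scale in spinal cord, higher on the array labelled KO, and -0.21 in duodenum. Genotypes are therefore given as labelled.

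The WT duodenum array was the dimmest. The 75th percentile of its processed signal was 68.0, against 323 for the duodenum array labelled KO and 905 and 971 for the spinal cord arrays, and 51.6% of its probes were well above background, against 66.2% to 77.4% on the others. All 7 neuronal markers were well above background on each spinal cord array, against 1 on WT duodenum and 6 on the duodenum array labelled KO. All 11 markers of intestinal epithelium were on each duodenum array, against 4 on each spinal cord array. The labelled tissues were borne out by summed signals, given for WT and then labelled KO. For neuronal markers these were 246162 and 254072 in spinal cord and 1226 and 3433 in duodenum. For epithelial markers they were 152 and 157 in spinal cord and 193706 and 448689 in duodenum. Those of 10 pancreatic acinar markers in duodenum were higher, 1198960 and 1700400. Values are log2 of the processed signal minus the 75th percentile of that array. A relative difference is the log2 difference between 2 arrays minus the median difference of all genes well above background on both, so that a gene at 0 moved with the median gene. The technical SD of a difference, taken from probes spotted 10 times on each array, covers spots and not animals.

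Oxidative phosphorylation transfers electrons from NADH and succinate to oxygen through complexes I to IV of the inner mitochondrial membrane, and complex V, the ATP synthase, uses the resulting proton gradient to make ATP. Most subunits are encoded in the nucleus and imported, while a small number of core subunits of complexes I, III, IV and V are encoded in mitochondrial DNA. Complex II is the exception, being wholly nuclear-encoded and also an enzyme of the citrate cycle. Neurons and the absorptive epithelium of the gut both depend on mitochondrial ATP, and transcripts of these subunits are abundant in both tissues.

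Of the 83 genes, 81 were well above background on all 4 arrays. In spinal cord the median processed signal of the 83 genes was 24129.7 for WT and 26149.9 for the array labelled KO, and in duodenum 4875 for WT and 15384 for the array labelled KO. These medians lay between the 97.1st and the 97.8th percentile of all genes or identifiers on their arrays, each taken at its brightest probe. The set thus consists mostly of bright probes in each of the 4 samples. No probe was saturated. Cox7b2, a COX7B paralogue best known from testis, was well above background only on the spinal cord arrays, at signals of 26.1 on WT and 25.8 on the array labelled KO, against 0.946 and 0.941 in the duodenum. For the arrays labelled KO this bounds its spinal cord level at no less than 1.98-fold that of the duodenum, and for the WT arrays no bound could be given. Cox8c, the testis isoform of subunit 8, was not well above background on any array, with signals between 0.962 and 1.28.

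**Figure D1:**
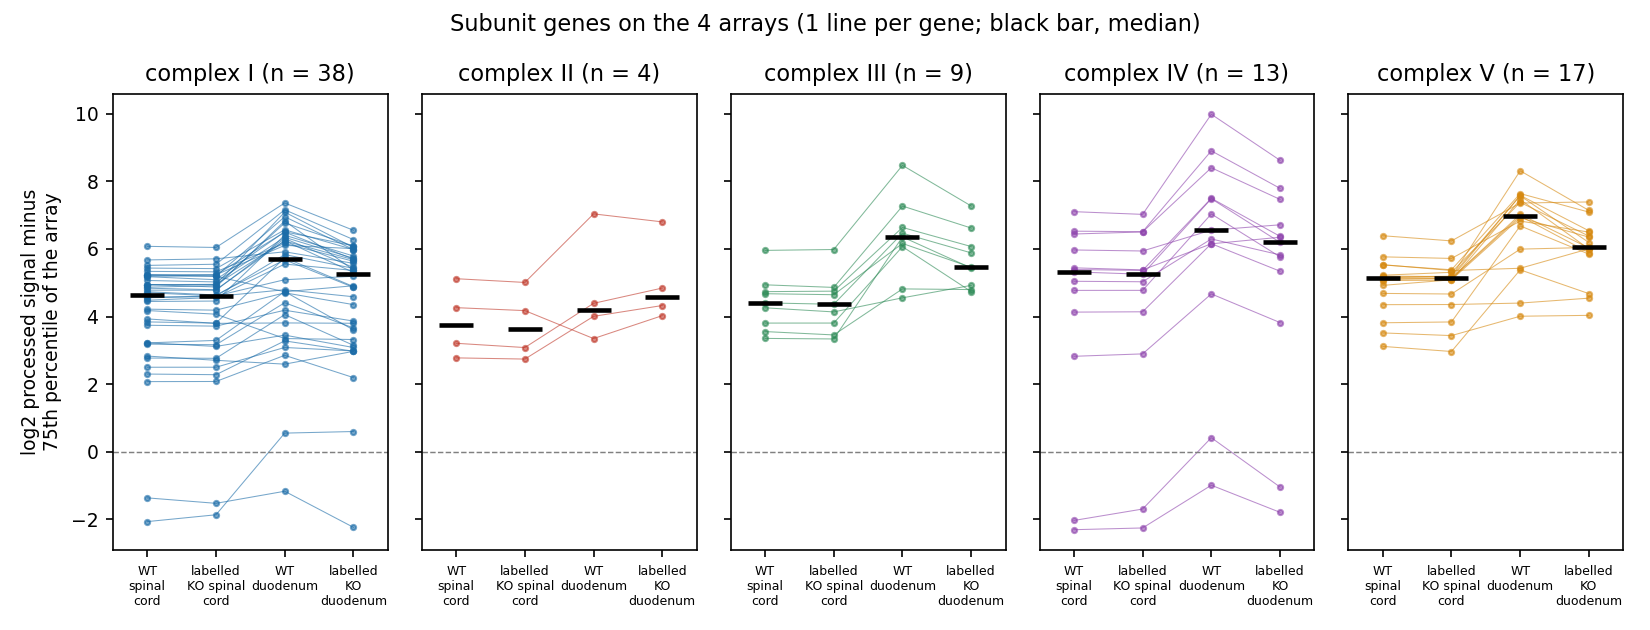
Log2 processed signal minus the 75th percentile of the array (vertical axis) for the 81 subunit genes well above background on all 4 arrays (horizontal axis), by complex, with 1 line per gene and a black bar at the median. The lines are nearly flat between the spinal cord arrays, and fan out between the duodenum arrays. Medians over all 83 genes were 4.74 and 4.75 in the spinal cord and 6.16 and 5.57 in the duodenum, for WT and the array labelled KO.

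In the spinal cord, the subunit transcripts of all 5 complexes were at nearly the same level on the array labelled KO as on the WT array. The median relative difference of 82 genes was 0.02 on the log2 scale, with the middle 50% of genes between -0.04 and 0.05. With normexp background correction the median was 0.80, and it was 0.05 once flagged local backgrounds were replaced. None of the 82 was at least 2-fold higher or lower, where 1.92% of all genes well above background on both arrays were at least 2-fold higher and 0.53% were at least 2-fold lower. The interquartile range was 0.09 for the subunits and 0.25 for all genes. Genes were divided by brightness into 10 classes of equal size. Among the 2416 genes in the brightest class, where 70 of the 82 subunits lay, the quartiles were -0.09 and 0.03, so a narrow range was shared by other bright probes.

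The complexes did not separate from each other in the spinal cord. The median relative difference was 0.02 for complex I, -0.06 for complex II, 0.01 for complex III, 0.02 for complex IV and 0.02 for complex V. The median technical SD of a difference was 0.057, and 7 of the 82 genes lay more than 2 technical SDs from 0. Sdha, the flavoprotein that oxidizes succinate, had signals of 17369.9 on WT and 17543 on the array labelled KO, and Ndufs1, the largest iron-sulphur subunit of complex I, had 16365 and 16305. Their relative differences were -0.05 and -0.07. Uqcrc2, a structural core subunit of complex III, was spotted 10 times on each array, and its log2 signals had an SD of 0.014 and 0.038 over the spots of the 2 spinal cord arrays.

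The 3 highest relative differences in the spinal cord belonged to complexes IV, I and V. Cox6b2, the testis isoform of subunit 6B, had signals of 220.3 on WT and 299 on the array labelled KO, a relative difference of 0.38, while its main isoform Cox6b1 went from 6399 to 7217, a relative difference of 0.11. Ndufab1, the mitochondrial acyl carrier protein that is also a complex I subunit, went from 215 to 266, a relative difference of 0.24. Atp5e, the epsilon subunit of the ATP synthase, went from 27438 to 33009, a relative difference of 0.20.

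The 3 lowest included both large subunits of the catalytic head of the ATP synthase. Atp5a1, the alpha subunit, had signals of 41980.5 and 39939, a relative difference of -0.14, and Atp5b, the catalytic beta subunit, had 75999 and 73356, a relative difference of -0.11. Ndufa4l2, a hypoxia-responsive paralogue of Ndufa4, had 350.2 and 336, a relative difference of -0.12. Atp5a1 and Atp5b were more than 2 technical SDs below the median gene, and both changed sides of it in at least 1 of the 9 other settings.

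The muscle and fat isoforms that the set leaves out behaved differently in the spinal cord. Cox6a2, the heart and skeletal muscle isoform of subunit 6A, had a signal of 287 on WT and 2563 on the array labelled KO, a relative difference of 3.09, whereas Cox6a1, its widely expressed counterpart, had 124559 and 126439 and a relative difference of -0.04. Cox8b went from 1012 to 1656, a relative difference of 0.65, against 0.10 for Cox8a, and Cox7a1 went from 1629.7 to 2324, a relative difference of 0.45, against 0.04 for Cox7a2. All 3 muscle isoforms were higher on the array labelled KO, while the ubiquitous isoform of each pair stayed within 0.10 of the median gene.

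Markers of several other cell types differed between the spinal cord arrays, in both directions. The summed signal of 10 skeletal muscle markers was 25776 on the WT spinal cord array, where 9 were well above background, and 93253 on the array labelled KO, where all 10 were, with a median relative difference of 4.05. The summed signal of 5 Schwann cell markers went from 8724 to 35394, and that of 5 blood markers from 205639 to 339565. The summed signal of 5 brown fat markers went the other way, from 5030.0 with 5 well above background to 3051 with 4. That of 5 white fat markers went from 2532 to 1909, with 4 well above background on each array. Their part in the values of the muscle isoforms was not tested. In whole tissue a lower or higher share of a cell type and a change in RNA per cell cannot be told apart, here or in the comparisons that follow.

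Other mitochondrial gene groups had medians close to 0 in the spinal cord. The median relative difference was 0.02 for 44 assembly factors of the 5 complexes, 0.03 for 78 mitochondrial ribosomal proteins, 0.00 for 7 electron and nucleotide carriers and -0.04 for 15 genes of the citrate cycle and pyruvate dehydrogenase, of which 12 lay below 0. Of 13 regulators of mitochondrial biogenesis, 7 lay above 0 and 6 below. The coactivator gene Ppargc1a had signals of 2262 and 2245, a relative difference of -0.07.

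In the duodenum the subunits spread widely between the array labelled KO and WT, and the direction of the set as a whole depended on the scaling. With each array scaled to its 75th percentile, 61 of 81 genes lay below the median gene and 20 above it, with a median relative difference of -0.51. The middle 50% of the genes lay between -0.82 and -0.07. The number at least 2-fold lower was 17 of 81, where 14.7% of all genes well above background on both arrays were, and the number at least 2-fold higher was 0, where 7.37% of all genes were. In the brightest of 10 classes of genes, where 61 of the 81 subunits lay, 23.99% of the genes were at least 2-fold lower.

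Neither the size nor the sign of this median was stable. The median relative difference was -0.10 with quantile normalization of the 4 arrays, -0.12 with quantile normalization within the tissue, -0.04 with cyclic loess, which takes out a difference that depends on brightness, and 0.15 with normexp background correction. The 17 genes that were 2-fold lower became 2, Ndufa4l2 and Cox6b2, under each of these, and with scaling on spiked-in controls all 81 were at least 2-fold higher. Spiked-in scaling moved all genes alike: the median gene then lay at 2.89, and the subunit median stayed at -0.51 relative to it. In that brightest class, the median relative difference was -0.40 for all genes and -0.57 for the 61 subunits. Over the 10 classes it was not a steady trend, since all genes had medians of -0.51 in the dimmest class, which holds no subunit, and up to 0.23 in the classes between. The values that follow are therefore given as the order of the subunits among themselves, with the range over the settings.

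**Figure D2:**
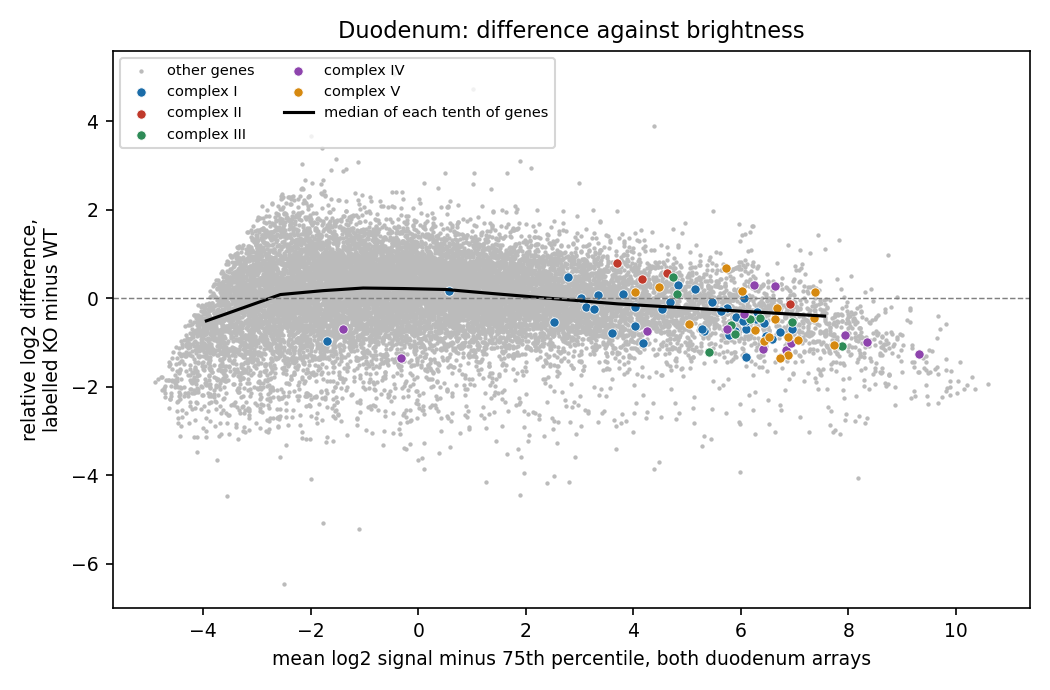
Relative log2 difference between the duodenum array labelled KO and the WT array (vertical axis) against the mean log2 signal minus the 75th percentile (horizontal axis), for all genes well above background on both (grey) and the subunit genes (coloured by complex); the black line joins the medians of 10 brightness classes of all genes. The line falls to -0.40 in the brightest class, where most subunits lie, and the subunits are spread on both sides of it.

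Complex II stood above the other complexes in the duodenum. Sdha went from a signal of 692 on WT to 5258 on the array labelled KO, which after scaling is a relative difference of 0.79, the highest of all 81 subunits. Sdhd, a membrane anchor of the complex, went from 1426 to 9262, a relative difference of 0.57, and Sdhc, the other anchor, from 1092 to 6472, a relative difference of 0.44. Sdhb, the iron-sulphur subunit, went from 8942 to 36019, a relative difference of -0.12.

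The median relative difference was 0.50 for complex II, -0.45 for complex I, -0.54 for complex III, -0.59 for complex V and -0.82 for complex IV. The median of complex II exceeded that of the other 77 subunits by 1.05, and by 0.71 to 1.05 over the 10 ways of scaling or summarizing that were tried. Complex IV was below the other subunits by 0.36, and by 0.24 to 0.53 over the same 10. Complexes I, III and V lay within 0.18 of the other subunits in every case. Median centring and scaling on spiked-in controls subtract a constant from each array, so they cannot change a relative difference or a gap. The deposited table closely repeats quantile normalization of the 4 arrays, and the normexp settings nearly coincide in the duodenum. Agreement over the 10 settings, here and elsewhere, is therefore not agreement of 10 independent checks. The complex II median rests on 4 genes, and the second probe of Sdhc had a relative difference of -0.57. The gap remained at 0.83 when the probes of each gene were averaged. Of the 22 subunits with several probes, 7 had probes on both sides of the median gene in the duodenum.

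**Figure D3:**
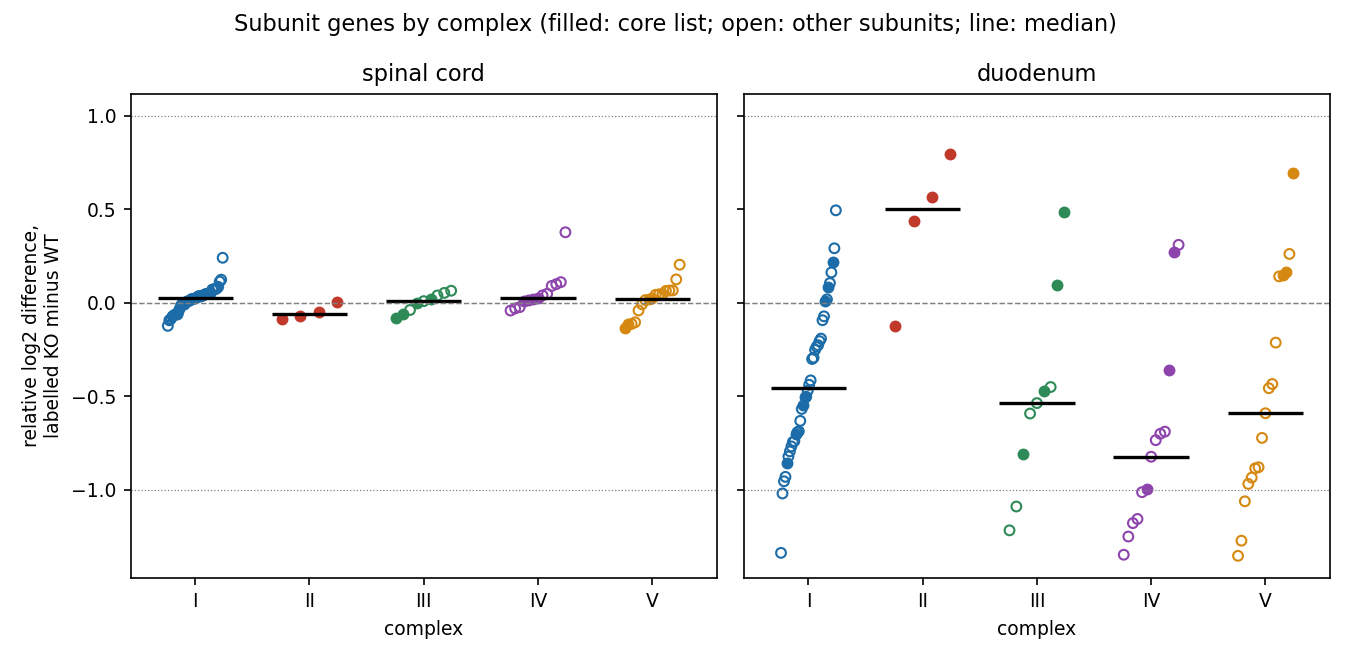
Relative log2 difference between the array labelled KO and the WT array (vertical axis) for the 81 subunit genes by complex (horizontal axis), in the spinal cord (left) and the duodenum (right); filled points are the core list, open points the other subunits, black lines the medians and dotted lines a 2-fold difference. The spinal cord points stay between -0.14 and 0.38, and the duodenum points spread from -1.35 to 0.79, with complex II highest.

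A list of 21 nuclear-encoded core subunits, which carry the redox centres, the catalytic sites or the central structure of each complex, differed from the remaining subunits. In the duodenum its median relative difference was 0.09, against -0.66 for the 60 other subunits, a gap of 0.74 that ranged from 0.44 to 0.74 over the 10 settings. Of the 21 core genes, 11 were above the median gene in all 10 settings and 3 were below it in all 10. Of the 60 others, 8 were above in all 10 and 27 below in all 10. The remaining 32 of the 81 subunits changed sides with the setting.

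The core list and the rest did not part in every complex. In complex I, 7 core genes had a median of -0.51 and 31 others a median of -0.44. In complex III the medians were -0.19 for 4 core genes and -0.59 for 5 others, in complex IV -0.36 for 3 and -0.92 for 10, and in complex V 0.16 for 3 and -0.80 for 14.

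Among the core subunits of complex I, Ndufs3 was highest in the duodenum. It helps form the arm on which ubiquinone is reduced, and its signal went from 2316 on WT to 11792 on the array labelled KO, a relative difference of 0.22. Ndufs1 went from 692 to 3220.0, a relative difference of 0.09. The NADH-binding subunit Ndufv1 had 5530.4 and 17074, a relative difference of -0.51, and its partner Ndufv2 had 3484 and 9397, a relative difference of -0.70. The iron-sulphur subunit Ndufs8 had a relative difference of -0.54, and Ndufs7, which carries the last cluster before ubiquinone, had the lowest value of the 7, at -0.86. Neighbouring core subunits of the same complex thus lay on opposite sides of the median gene.

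The accessory subunits of complex I reached lower. Ndufb4 had signals of 7728 and 13418, a relative difference of -1.34, and Ndufa4l2 had 30.1 and 68.2, a relative difference of -0.95. Ndufa4, which was first assigned to complex I and is now placed with complex IV, had 1886 and 7749 and a relative difference of -0.09. Ndufa4 and its paralogue Ndufa4l2 are counted under complex I throughout because of their symbols. Ndufa10, at 0.49, was the highest accessory subunit of complex I. Of the 38 complex I genes, 8 were above the median gene in all 10 settings and 13 were below it in all 10.

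In complex III, the pair of large core proteins diverged in the duodenum. Uqcrc2 had a signal of 1597 on WT and 9781 on the array labelled KO, a relative difference of 0.48, and its 10 spots had SDs of 0.051 and 0.027 on the 2 arrays. Uqcrc1, which forms a dimer with it, had 5570.3 and 13972, a relative difference of -0.81. The Rieske iron-sulphur protein Uqcrfs1 had a relative difference of 0.10 and cytochrome c1, Cyc1, of -0.47. The ordering Uqcrc2 above Uqcrfs1 above Cyc1 above Uqcrc1 also held with quantile normalization of the 4 arrays, at 0.59, 0.26, -0.11 and -0.43.

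Complex IV had the lowest median and 6 of the 17 genes that were at least 2-fold lower. Cox6b2 had signals of 90.5 and 156, a relative difference of -1.35, and it remained at -1.39 with quantile normalization of the 4 arrays. Cox4i2, the isoform of subunit 4 known from lung and low oxygen, had 34.1 and 92.8, a relative difference of -0.69. Its main isoform Cox4i1 had 32621 and 71699, a relative difference of -0.996 that became 0.03 with that quantile normalization. Cox6a1, the widely expressed isoform of subunit 6A, had 69079 and 127418, a relative difference of -1.25 that turned to 0.15.

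Small single-span subunits of complex IV shared the low end in the main setting, with Cox7a2 at -1.15, Cox7b at -1.01 and Cox8a at -0.82. The second probe of Cox8a was at -0.29, and Cox8a ran from -0.82 to 0.02 over the 10 settings. Cox5a, which sits on the matrix side of the enzyme, had 6407 and 33922 and a relative difference of 0.27, and Cox5b had 5346 and 18295 and a relative difference of -0.36. Cox7a2l, a relative of Cox7a2 that joins complexes III and IV into supercomplexes, had 4839 and 26283 and a relative difference of 0.31. Cox5a and Cox7a2l were the 2 genes of complex IV above the median gene in all 10 settings, and 7 of the 13 were below it in all 10.

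The 17 subunits of the ATP synthase ranged from -1.35 to 0.69 in the duodenum. The alpha and beta subunits of the catalytic head lay above the median gene. Atp5a1 went from a signal of 2929 to 20722, a relative difference of 0.69, and Atp5b from 11170.3 to 54228, a relative difference of 0.15. The central stalk subunits lay on both sides of the median gene. Atp5c1, the gamma subunit, went from 4339 to 21312, a relative difference of 0.16, and its second probe was at -0.05. Atp5d had a relative difference of -0.72 and Atp5e of -0.46. The membrane ring is built from identical mature proteins encoded by 3 genes, and these had relative differences of -0.88 for Atp5g1, -1.06 for Atp5g2 and -0.43 for Atp5g3.

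The peripheral stalk overlapped the other parts of the ATP synthase. Of its genes, Atp5j was at 0.26, Atp5pb at 0.14, Atp5h at -0.21 and Atp5o at -0.59. The 5 small membrane subunits were all low, with Atp5md at -1.35, Atp5j2 at -1.27, Atp5k at -0.97, Atp5l at -0.93 and Atp5mpl at -0.88, and each of them was below the median gene in all 10 settings. With quantile normalization of the 4 arrays the same 5 genes lay between -0.73 and -0.32, and Atp5a1, Atp5b and Atp5c1 at 0.82, 0.67 and 0.39. Atp5md went from a signal of 12017 on WT to 20638 on the array labelled KO, a smaller rise in raw signal than the 75th percentile of the arrays made.

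**Figure D4:**
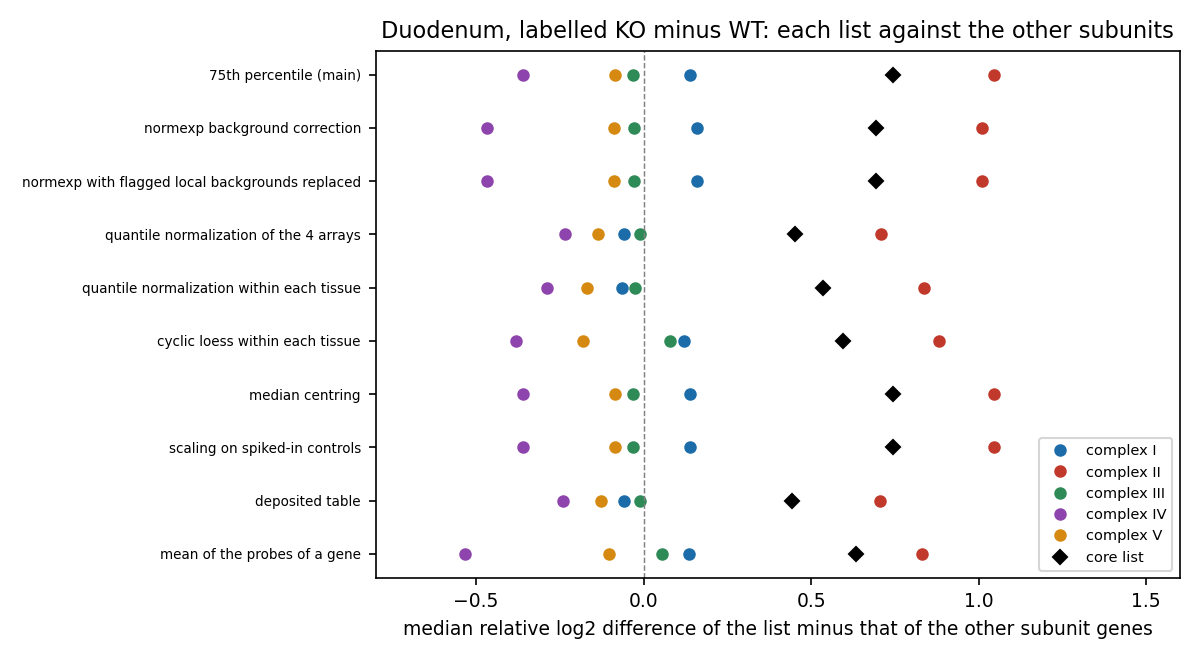
Median relative log2 difference in the duodenum, array labelled KO minus WT, of each complex and of the core list minus that of the other subunit genes (horizontal axis), under 10 ways of scaling or summarizing the arrays (vertical axis). Complex II lies between 0.71 and 1.05 and the core list between 0.44 and 0.74 in each row, and complex IV between -0.53 and -0.24. The rows for median centring and spiked-in controls repeat the main row by construction.

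Brightness and gene size both went with the position of a subunit in the duodenum. Across the 81 subunits, Spearman's rho between the relative difference and the mean brightness of the probe was -0.41, and -0.04 after quantile normalization of the 4 arrays. With the genomic span of the gene in the RefSeq annotation, rho was 0.37 for the subunits and 0.22 for 12427 genes with a span, and it was 0.25 for the subunits after that normalization. In the spinal cord the rho with genomic span was -0.32 for 82 subunits. The gaps of complex II and of the core list were 1.05 and 0.74 in the main setting. They were 0.88 and 0.60 after cyclic loess, and 0.71 and 0.45 after quantile normalization of the 4 arrays. All points share the same arrays, and the part of brightness or of gene size in the gaps was not tested.

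Genes of the citrate cycle, which supplies NADH and succinate, lay mostly above the median gene. Of 15 genes of the citrate cycle and pyruvate dehydrogenase, 14 lay above the median gene in the duodenum, with a median relative difference of 0.60, and the median was 0.82 with quantile normalization of the 4 arrays. Pdha1, the E1 alpha subunit of pyruvate dehydrogenase, had a signal of 63.9 on WT and 709.7 on the array labelled KO, a relative difference of 1.34. Ogdh was the gene below 0, at -0.46. The 7 carriers had a median of 0.39, with Etfdh, which passes electrons from fatty acid oxidation to ubiquinone, at 1.41 and cytochrome c, Cycs, at -0.61.

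Assembly factors were close to the median gene in the duodenum, with a median of 0.15 for 43 genes, 27 of them above 0. Lrpprc, an RNA-binding protein needed for complex IV, went from 137 to 1700.5, a relative difference of 1.497. The mitochondrial ribosomal proteins had a median of 0.07 over 77 genes. The cytosolic ribosomal proteins had a median of -0.79 over 80 genes, which became 0.03 with quantile normalization of the 4 arrays. Of 13 biogenesis regulators 8 lay above 0 and 5 below. They ran from Pprc1, a coactivator related to Ppargc1a, at -0.80 to Ppargc1a itself at 1.32, with Tfam, the packaging factor of mitochondrial DNA, at 0.89, Nrf1 at 0.56 and the mitochondrial RNA polymerase Polrmt at -0.67. Their median was 0.30, and -0.17 when the probes of a gene were averaged.

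Blood and pancreatic markers also differed between the duodenum arrays. The summed signal of 5 blood markers went from 104176 in WT to 28520.5 on the array labelled KO, all 5 being well above background on both, with a median relative difference of -3.66. All 10 pancreatic acinar markers were well above background on both arrays, with a median relative difference of -1.75 that was -0.07 after quantile normalization of the 4 arrays. For 11 markers of intestinal epithelium the median was -0.08. The part of these in the values of the subunits was not tested.

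The duodenum and the spinal cord did not give the same picture for the 2 genotypes. Across 81 subunits the differences between the array labelled KO and the WT array had a Pearson's r of -0.37 between tissues, and r was 0.02 over 16182 genes. These comparisons share no array. Of the 3 lowest subunits in the spinal cord, Atp5a1 and Atp5b lay above the median gene in the duodenum and Ndufa4l2 below it. Of the 3 highest, Cox6b2 and Atp5e lay below it in the duodenum and Ndufab1 above it. The spinal cord values behind this r were almost all within 2 technical SDs of 0.

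The tissues were compared within each genotype. The duodenum arrays also carried strong pancreatic acinar markers, and the part of these in the tissue differences was not tested. With the arrays scaled to their 75th percentiles, 56 of 81 subunits of the WT arrays were at least 2-fold higher in duodenum than in spinal cord and 0 were at least 2-fold lower, where 43% and 21.7% of all genes were. For the arrays labelled KO, 28 of 81 were at least 2-fold higher and 0 lower, where 33.6% and 22.2% of all genes were. The median relative difference, duodenum minus spinal cord, was 0.69 for the WT arrays and 0.50 for the arrays labelled KO. These counts and signs belong to the scaling. With quantile normalization of the 4 arrays, 6 subunits were higher and 15 lower on the WT arrays and 2 higher and 8 lower on the arrays labelled KO, and the medians were -0.52 and -0.68. With quantile normalization within each tissue none was higher, and 53 and 66 were lower. That setting does not align duodenum with spinal cord, and the median gene itself then lay at -2.08 in WT and -2.31 on the arrays labelled KO. Relative to it the subunit medians were 0.59 and 0.65, so those counts carry an offset common to all genes. Whether the set as a whole was higher in the duodenum or in the spinal cord cannot be read from these arrays.

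Complex I had the lowest median of the complexes in the duodenum relative to the spinal cord, though in WT it was close to complex II. In WT its median relative difference was 0.55, against 0.58 for complex II, 1.44 for complex III, 1.40 for complex IV and 1.37 for complex V. For the arrays labelled KO the medians were 0.21 for complex I, 1.37 for complex II, 1.02 for complex III, 0.66 for complex IV and 0.77 for complex V. The gap between complex I and the 43 other subunits was -0.78 in WT and -0.50 on the arrays labelled KO. Over the 10 settings it stayed between -0.78 and -0.45 in the first and between -0.66 and -0.39 in the second. Complex III lay above the other subunits by 0.43 to 0.78 in WT and by 0.50 to 0.57 on the arrays labelled KO. Across the 81 subunits, Spearman's rho of this tissue difference with brightness was 0.48 in WT and 0.40 on the arrays labelled KO. With quantile normalization of the 4 arrays it was -0.20 and -0.33. With genomic span, rho was -0.39 and -0.26 in the main setting. The part of brightness or of gene size in these gaps was not tested.

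**Figure D5:**
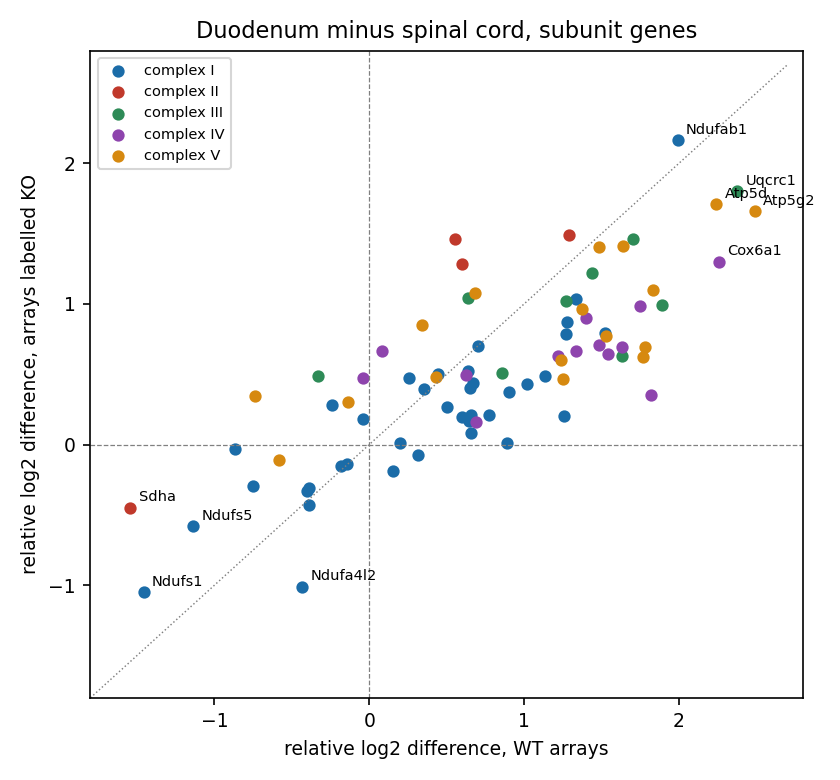
Relative log2 difference, duodenum minus spinal cord, for the 81 subunit genes on the WT arrays (horizontal axis) and on the arrays labelled KO (vertical axis), with each array scaled to its 75th percentile, coloured by complex; the dotted line marks equal values. Most points in the lower left are complex I genes, joined by Sdha at -1.54 and -0.45, the other complex II genes lie at 0.56 or higher on the WT arrays, and Uqcrc1, Atp5g2, Atp5d and Ndufab1 lie at the upper right.

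The WT and the labelled KO comparisons used different arrays. Across the 81 subunits their relative differences had a Pearson's r of 0.79, against 0.93 over 16182 genes, and r for the subunits was between 0.77 and 0.85 under the 3 other scalings for which it was computed. Of the 81, 9 were above the median gene in all 10 settings and both genotypes, and 10 were below it in all 10 and both. The 9 were Atp5d, Atp5g2, Atp5o, Cox4i2, Cox6b1, Cox6b2, Cyc1, Ndufab1 and Uqcrc1. The 10 were Sdha and 9 genes counted under complex I by symbol, namely Ndufa4, Ndufa4l2, Ndufa5, Ndufa9, Ndufb3, Ndufb5, Ndufb6, Ndufs1 and Ndufs5. Of these, Ndufa4 is now placed with complex IV, and Ndufa4l2 is its paralogue.

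Ndufs1 and Sdha had the lowest relative differences on the WT arrays. Ndufs1 had signals of 16365 and 16305 on the spinal cord arrays and 692 and 3220.0 on the duodenum arrays, with relative differences of -1.46 in WT and -1.05 for the arrays labelled KO. Sdha had 17369.9 and 17543 in the spinal cord and 692 and 5258 in the duodenum, with relative differences of -1.54 and -0.45. Its partners did not share this: Sdhb was at 1.29 and 1.49, Sdhc at 0.60 and 1.29 and Sdhd at 0.56 and 1.46, so the catalytic subunit of complex II and its membrane and iron-sulphur subunits lay apart in both genotypes.

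At the other end, Ndufab1 had signals of 215 and 266 in the spinal cord and 99.4 and 487 in the duodenum, with relative differences of 1.99 and 2.17. Uqcrc1 had 9240.3 and 9804 against 5570.3 and 13972, with relative differences of 2.38 and 1.80, and Uqcrc2 was at -0.33 and 0.49. Among the ring genes of the ATP synthase, Atp5g2 had 33202 and 35239 against 21668 and 45532. Its relative differences were 2.49 and 1.66, against 1.53 and 0.77 for Atp5g1 and 1.49 and 1.41 for Atp5g3. The head subunits Atp5a1 and Atp5b and the central stalk subunit Atp5c1 were lower, at -0.73, 0.34 and 0.68 in WT.

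Isoform pairs of complex IV were compared between tissues next. Cox6b2 was at 1.82 in WT and 0.35 for the arrays labelled KO, and its counterpart Cox6b1 at 1.22 and 0.63. Cox4i2 was at 0.69 and 0.16, and Cox4i1 at 1.75 and 0.98. After quantile normalization of the 4 arrays Cox4i2 was at 1.11 and 0.40 and Cox4i1 at -0.87 and -0.81, so the order of the subunit 4 isoforms turned with the scaling.

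Other gene groups gave these values for the tissue difference. The cytosolic ribosomal proteins had a median relative difference of 2.19 in WT and 1.61 for the arrays labelled KO, above every complex, and the mitochondrial ribosomal proteins had 0.01 and 0.18. The citrate cycle genes had -0.63 and 0.44, so their median lay below that of every complex in WT. In the brightest of 10 classes of all genes the median was 1.23 in WT and 0.90 for the arrays labelled KO, while the 67 and 71 subunits in those classes had medians of 0.89 and 0.60. Slc25a4, the adenine nucleotide carrier of heart and muscle, had -5.06 and -4.17, and Slc25a5, another isoform of that carrier, had 1.66 and 2.35.

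Promoter sequence was examined because many subunit genes are textbook targets of NRF1, a nuclear respiratory factor that binds a GC-rich palindrome. RefSeq promoter windows of GRCm38.p6, from 250 bases before to 50 bases after the annotated start, were at hand for 67 of the 83 genes in 72 windows. The palindrome, GCGCA followed directly by its reverse complement TGCGC and searched on both strands, occurred in 5 of the 72 windows, or 6.94%, and in 0.971% of all 32851 windows. The ETS-type motif CCGGAAG was in 23.6% of the subunit windows and 8.86% of all, and the YY1-type motif AAGATGG in 15.3% and 6.34%. A match of letters describes the sequence and does not show that a factor binds there.

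The 5 genes with the palindrome were Atp5g2, Atp5k, Cox6a1, Ndufa11 and Uqcrc1. They include the 3 subunits with the largest relative difference between WT duodenum and WT spinal cord, Atp5g2, Uqcrc1 and Cox6a1, and the other 2 were at 1.25 and 0.66. The median of the 5 genes was 2.26 in WT and 1.30 for the arrays labelled KO, against 0.66 and 0.49 for 61 subunit genes with a window and no palindrome. In the duodenum comparison of the genotypes the 5 lay between -1.25 and -0.79, with a median of -0.97. The 61 genes without the palindrome had a median of -0.47. With quantile normalization of the 4 arrays Cox6a1 turned to 0.15, and Atp5g2, Atp5k, Ndufa11 and Uqcrc1 lay between -0.56 and -0.24. This comparison and the tissue difference in WT share the WT duodenum array with opposite sign, so their values are not independent. On the WT arrays Cox6a1 and Atp5k fell to -0.73 and -0.44 with quantile normalization of the 4 arrays, so their place above the median gene depends on the scaling. In Uqcrc1 the palindrome lies after the start, and its sequence is not shown. The other 4 are printed below, 5′ to 3′ on the strand of the gene and upstream of the start only, with the palindrome in capitals, because they place this shared element in the promoters of subunits from complexes I, IV and V.
Atp5g2, chr15:102671048-102671149, minus strand, palindrome from -42 to -33 relative to the start: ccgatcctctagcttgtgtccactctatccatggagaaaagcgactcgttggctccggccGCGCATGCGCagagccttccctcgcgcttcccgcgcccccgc
Atp5k, chr5:108434400-108434509, minus strand, palindrome from -50 to -41 relative to the start: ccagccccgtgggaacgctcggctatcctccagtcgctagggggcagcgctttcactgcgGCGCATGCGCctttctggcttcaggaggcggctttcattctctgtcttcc
Cox6a1, chr5:115349051-115349180, minus strand, palindrome from -162 to -153 relative to the start: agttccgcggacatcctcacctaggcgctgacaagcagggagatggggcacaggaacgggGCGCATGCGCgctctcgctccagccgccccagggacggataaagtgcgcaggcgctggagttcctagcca
Ndufa11, chr17:56717642-56717761, plus strand, palindrome from -60 to -51 relative to the start: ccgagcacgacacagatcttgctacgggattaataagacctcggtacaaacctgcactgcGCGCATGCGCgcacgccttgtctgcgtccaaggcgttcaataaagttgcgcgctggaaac
Its first base lay at -42, -50 and -60 in Atp5g2, Atp5k and Ndufa11 and farther upstream, at -162, in Cox6a1. The genes that hold it did not stand apart in the spinal cord, where their relative differences between the array labelled KO and the WT array were between -0.04 and 0.07.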

How the data were processed

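Total RNA of each tissue had been labelled with Cy3 and hybridized to Agilent mouse arrays. Per the file headers, the scanner output of Agilent Feature Extraction 11.5.1.1 holds signals and local backgrounds of each spot and a processed signal, an intensity that the authors' software had already corrected for background. The deposited table of log2 values equalled quantile-normalized log2 of the processed signal for the 83 subunit genes to a median of 0.0028 and was used as an alternative only. Control spots and between 89 and 133 flagged spots of 43020 per array were left out, spots of a probe were averaged, and 39418 of 39429 probes had a usable spot on every array. RefSeq accessions in the files were named through the RefSeq annotation of GRCm38.p6, giving a symbol to 20140 of 32575 genes or identifiers. The files do not hold counts, and the number of arrays limits the precision.

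Log2 of the processed signal minus the 75th percentile of each array was the main setting. A difference was computed for genes well above background on both arrays of a pair, and a gene above it on 1 array gives at most a bound. Technical SDs came from 399 probes with 10 spots, taking, for each gene, the median SD over the 50 such probes closest in brightness. The 10 settings were the main one and normexp (offset 50) with and without replacement of flagged local backgrounds, quantile normalization of 4 arrays or within a tissue, cyclic loess, median centring, 8 spiked-in control probes, the deposited table and the mean over the probes of a gene. Median centring and spiked-in controls subtract a constant from each array, so relative differences and gaps under them equal the main ones by construction. The deposited table closely repeats quantile normalization of the 4 arrays. The calculation was tested on simulated data. R 4.3.3 with limma 3.58.1, Python 3.11.15, numpy 2.4.6 and pandas 2.3.3 were used. All arrays shared 1 slide and 1 scan, so no batch could be separated.

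Genes named in the text were those of the 21 core subunits (1 of them is not reported here by name), the isoform groups, the 3 highest and 3 lowest subunits of each comparison, subunits below background and Ip6k2. Other subunits of the ATP synthase, Ndufa10 and the genes of other pathways were named after their values were seen. The members and lists were chosen with earlier results of these data known. The cells of origin were not separated, and no gene-set test was made.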

Additional observations from a re-analysis of the deposited data

Results flagged for a closer look

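Of the subunit genes, 5 moved in opposite directions in the 2 tissues, by more than 2 technical SDs in each, between the array labelled KO and the WT array. With 1 array per group, the difference between tissues was not tested, and the share of all genes that meet this rule is not given here. Atp5a1 had relative differences of 0.69 (duodenum) and -0.14 (spinal cord), 0.83 apart. For Atp5b the values were 0.15 and -0.11, 0.26 apart. Atp5e was at -0.46 (duodenum) and 0.20 (spinal cord), a difference of -0.66, Atp5g1 at -0.88 and 0.12, a difference of -1.01, and Cox6b2 at -1.35 and 0.38, a difference of -1.72. Under quantile normalization of the 4 arrays the duodenum value was 0.82 for Atp5a1, 0.67 for Atp5b, -0.02 for Atp5e, -0.31 for Atp5g1 and -1.39 for Cox6b2, and Atp5e moved to 0.19 with normexp background correction and to 0.10 with cyclic loess, the other 4 genes staying on the same side of the median gene in the duodenum in all 10 settings. In the spinal cord Atp5e, Atp5g1 and Cox6b2 stayed above the median gene in all 10 settings. Atp5a1 and Atp5b did not stay below it: with normexp they were at 0.62 and 0.70, above it in both tissues. The subunit median in spinal cord was 0.80 under normexp. The technical SD was 0.067 in the duodenum for the 4 ATP synthase genes and 0.090 for Cox6b2, and it does not cover animals.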

How the results depend on the processing

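No paired analysis was possible because each group had 1 array. With no replicate, leaving out an array leaves no comparison, and the number of arrays, not the spots, limits what the values can show. Values below are medians of relative log2 differences unless named otherwise, and the cause of each change was not tested. In the duodenum, array labelled KO minus WT, the subunit median of -0.51 became 0.148 with normexp and 0.148 with flagged backgrounds replaced, -0.103 with quantile normalization of 4 arrays, -0.122 within tissue, -0.0379 with cyclic loess, -0.0968 in the deposited table, -0.599 with at least 1 array well above background and -0.104 with no filter. The 0 genes 2-fold higher became 2 with either normexp, 1 with quantile normalization within tissue, loess or a 1.5-fold limit, and 81 with spiked-in controls, which shifted the median gene by 3.002. The 17 genes 2-fold lower became 2 with either normexp, either quantile normalization, loess or the table, 0 with spiked-in controls and 42 at 1.5-fold. In the spinal cord the median became 0.801 with normexp, and 1 gene was then 2-fold lower.

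Between tissues on the WT arrays, the median of 0.69 became 0.455 with normexp, -0.0865 with flagged backgrounds replaced, -0.516 with quantile normalization of 4 arrays, 0.588 within tissue, 0.547 with loess, -0.520 in the table, 1.09 with at least 1 array above background and 0.276 with no filter. On the arrays labelled KO, in the same order, 0.50 became 0.0829, 0.0830, -0.684, 0.646, 0.720, -0.688, 0.734 and 0.314. Among the complexes and the named genes, the following turned sign with quantile normalization of 4 arrays and in the table from a value of at least 1.0, with both values given in that order. On the WT arrays these were complex III (-0.176, -0.175), complex IV (-0.449, -0.462), complex V (-0.444, -0.448), Atp5e (-0.269, -0.275), Atp5g1 (-0.325, -0.334), Atp5g3 (-0.548, -0.559), Atp5j2 (-0.0948, -0.105), Atp5k (-0.444, -0.448), Atp5l (-0.0452, -0.0542), Atp5md (-0.0597, -0.0683), Atp5mpl (-0.489, -0.497), Cox4i1 (-0.868, -0.893), Cox6a1 (-0.732, -0.775), Cox7b (-0.449, -0.462), Cox8a (-1.08, -1.10), Ndufb4 (-0.366, -0.373), Ndufs7 (-0.587, -0.595) and Sdhb (-0.437, -0.445). On the arrays labelled KO they were complex III (-0.200, -0.203), Atp5c1 (-0.178, -0.177), Atp5g3 (-0.133, -0.128), Atp5l (-0.299, -0.299) and Cox6a1 (-0.551, -0.549). From smaller values, complex I (-0.838, -0.845) and complex II (-0.287, -0.290) also turned on the WT arrays, and complex I (-0.857, -0.860), complex IV (-0.778, -0.779) and complex V (-0.682, -0.688) on the arrays labelled KO. Subunits not named with a value, such as Cox6c, Uqcrh and Ndufb7 on the WT arrays, turned too. In the duodenum Cox6a1 became 0.149 and 0.193, and 0.171 with quantile normalization within tissue. Of the remaining values of complexes and named genes under an alternative, 922 moved by less than the technical SD of a difference, which covers spots and not animals, and 1058 by more.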
